A study of Mus musculus with 2 samples.

Results

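The potassium channel genes were the autosomal protein-coding genes of GENCODE vM21 (mm10) whose symbol starts with Kcn, with 2 genes of that prefix left out by the rule. There were 90 such genes among 20722 autosomal protein-coding genes. The genes were taken by symbol and annotation, and no measured value sets the rule. CpG states were read by SCoTCH-seq, in which both strands of 1 DNA duplex are read as a linked pair, so that each call gives the state of a whole CpG. In the notation used here C is unmodified cytosine, M is 5-methylcytosine and H is 5-hydroxymethylcytosine, with 1 letter for each strand. Thus MM is a CpG methylated on both strands, HC/CH carries hmC opposite an unmodified cytosine, and HM/MH carries hmC opposite a methylated one.

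The DNA came from E14, a widely used mouse embryonic stem cell line, grown in medium with fetal bovine serum and LIF on gelatin. Neither replicate carried a drug, knockout or other perturbation, and both libraries belong to the same group. The 2 replicates were different passages of 1 line, so the spread between them holds culture and library preparation but not differences between lines or animals. No comparison between conditions exists in these data, and every comparison below is between genes or gene regions within a library. Because no RNA was read in these libraries, whether any of these channels was transcribed was not analysed here.

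Potassium channels let K+ leave or enter the cell along its gradient and so set the resting potential and end action potentials. The pore genes fall into voltage-gated families (Kcna, Kcnb, Kcnc, Kcnd, Kcnh, Kcnq) and silent subunits that only work together with Kcnb products (Kcnf, Kcng, Kcns, Kcnv). Others are calcium- or sodium-activated families (Kcnma, Kcnn, Kcnt), inward rectifiers (Kcnj), leak channels (Kcnk) and the sperm channel Kcnu. Kcnab, Kcne, Kcnip and Kcnmb code for accessory subunits. Most are known from neurons, muscle, kidney and endocrine cells. In DNA, mC is oxidised to hmC by TET enzymes, and CpG-dense promoters are as a rule free of both.

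Replicate 1 held 141159011 calls at 13366464 autosomal CpG sites, with a mean depth of 10.6 calls per site, and replicate 2 held 31102023 calls at 4882356 sites with a mean depth of 6.37. Only sites with 5 or more calls were deposited. In the spans of the potassium channel genes and 2 kb upstream, 69.1% of the 87622 reference CpGs were covered in replicate 1 and 24.3% in replicate 2, by 631418 and 133920 calls. Their promoters were covered less well, at 38.7% and 11.7%, against 45.1% and 15.5% for the promoters of all coding genes. Synthetic duplexes carried set CpG states, and each of their sites was given the state it was most often called as in that library. The background on them differed between the libraries. HM/MH made up 4.51% of calls on MM duplexes in replicate 1 but 0.467% in replicate 2. HC/CH was called from MM in 0.167% and 0.105% of calls, and from MC/CM in 3.49% and 0.618%. HM/MH and HH levels as called are therefore not comparable between the replicates, and corrected levels are given beside those of HM/MH in gene bodies and promoter classes and of HH. The correction rests on the duplexes alone, while methylated lambda DNA gave HM/MH in 3.88% and 0.340% of its calls. Corrected levels need not be comparable between the replicates either. The promoters of 7 of 8 pluripotency genes (Pou5f1, Nanog, Sox2, Klf4, Esrrb, Zfp42 and Tdgf1) were under 20% modified in both replicates, while that of Dppa3 stood at 51.0% and 39.2%. As 56.1% of all covered coding promoters were under 20% in both replicates, this says little on the cell label.

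The promoter of a gene was the window from 1 kb before to 1 kb after the transcription start site (TSS) of 1 transcript, and their modified level is the mean over CpG sites of the share of calls other than CC. Of the 90 promoters 76 had at least 5 covered sites in each replicate. Among these, 18 (23.7%) were at least 50% modified in both replicates and are called modified, against 18.6% of all coding genes with the same coverage. Another 25 (32.9%) were under 20% modified in both and are called unmodified, against 56.1% of all coding genes. The other 33 (43.4%) were intermediate, against 25.3% of all coding genes. This class also takes promoters that the 2 replicates place differently. Its levels ran from 7.27% to 49.5% in replicate 1 and from 14.2% to 80% in replicate 2. The median in replicate 2 was 9 covered sites per promoter. With promoters of 500 bp either side of the TSS, 7 of 42 (16.7%) were modified and 26 (61.9%) unmodified, against 11.3% and 77.6% of all coding genes under the same setting, and with at least 10 covered sites 5 of 39 (12.8%) and 20 (51.3%), against 7.98% and 70.4%. In replicate 1 alone, where all 90 promoters were covered, 25 (27.8%) were modified, against 29.3%, and 47 (52.2%) unmodified, against 57.4%. Among promoters with coverage in both replicates, the median modified level was 18.4% and 28.9% in the channel genes. Over all coding genes it was 10.2% and 14.3%. The minimum of 5 sites in each replicate left out 28.2% of all coding promoters but 15.6% of the channel promoters. Shares and medians over both replicates thus rest on unlike parts of the 2 groups. The 2 replicates ranked the 76 promoters alike, with a Spearman rho of 0.865 across genes, which share a library within each replicate and differ in the number of sites.

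The letters of 4 promoters, 2 modified and 2 unmodified, are given because the CpG density of a promoter went along with its modified level. They were chosen as clear cases after their values were seen. They are RefSeq promoters of GRCm38.p6, 250 bases before to 50 after the start, printed on the gene's strand from 5′ to 3′ with each CpG in capitals. Kcnj12 lies at chr11:61065554-61065853 on the plus strand, Kcnmb3 at chr3:32491920-32492219, Kcnk12 at chr17:87797945-87798244 and Kcnk5 at chr14:20181733-20182032, all 3 on the minus strand.
Kcnj12: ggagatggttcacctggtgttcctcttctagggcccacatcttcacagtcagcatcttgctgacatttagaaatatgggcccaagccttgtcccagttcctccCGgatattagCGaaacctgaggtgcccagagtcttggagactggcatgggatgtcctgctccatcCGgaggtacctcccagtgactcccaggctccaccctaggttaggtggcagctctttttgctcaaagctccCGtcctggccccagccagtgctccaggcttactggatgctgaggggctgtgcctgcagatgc
Kcnmb3: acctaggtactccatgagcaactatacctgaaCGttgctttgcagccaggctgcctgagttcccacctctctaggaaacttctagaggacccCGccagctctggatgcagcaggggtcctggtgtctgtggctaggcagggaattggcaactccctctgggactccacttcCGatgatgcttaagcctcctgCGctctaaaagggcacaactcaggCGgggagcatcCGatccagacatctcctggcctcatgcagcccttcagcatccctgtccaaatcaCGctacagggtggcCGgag
Kcnk12: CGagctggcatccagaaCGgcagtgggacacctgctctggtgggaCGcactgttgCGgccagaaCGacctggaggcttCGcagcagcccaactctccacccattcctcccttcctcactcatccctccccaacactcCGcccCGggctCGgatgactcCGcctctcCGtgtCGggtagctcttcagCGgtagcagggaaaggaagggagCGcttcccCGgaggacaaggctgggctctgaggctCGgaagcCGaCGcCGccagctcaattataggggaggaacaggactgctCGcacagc
Kcnk5: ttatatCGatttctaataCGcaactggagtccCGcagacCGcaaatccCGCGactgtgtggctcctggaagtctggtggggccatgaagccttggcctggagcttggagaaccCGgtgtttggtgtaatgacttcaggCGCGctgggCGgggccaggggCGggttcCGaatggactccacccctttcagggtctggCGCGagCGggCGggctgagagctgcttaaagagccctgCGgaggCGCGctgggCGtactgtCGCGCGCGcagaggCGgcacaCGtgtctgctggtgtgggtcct

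The Kcnj12 stretch holds 4 CpGs and the Kcnmb3 stretch 8, against 20 in Kcnk12 and 26 in Kcnk5. In replicate 1, all 4 CpGs of the Kcnj12 stretch were covered and stood at 94.4% modified over 34 calls, and 2 of them in replicate 2 stood at 81.7% over 11 calls. The 8 CpGs of the Kcnmb3 stretch stood at 75.1% over 60 calls, and 3 of them in replicate 2 at 89.2% over 18 calls. In Kcnk12, 10 CpGs were covered in replicate 1 and none of 63 calls was modified, while no site was covered in replicate 2. In Kcnk5, 6 CpGs with 69 calls were at 0% in replicate 1, and 2 CpGs with 13 calls were at 8.33% in replicate 2. RefSeq promoters, with 1 chromosome that carries some of the 90 genes left out of the search, were found by symbol for 67 genes, of which 62 started within 1 kb of the TSS used here. Among those 62, the median number of CpGs in 300 bases was 20.5 for the 18 unmodified promoters, 17 for the 22 intermediate ones and 5 for the 12 modified ones, beside 7 over all 32851 RefSeq promoters. The ranges overlapped, with 3 to 49 CpGs in unmodified, 3 to 33 in intermediate and 1 to 16 in modified promoters. Kcnip1, classed as modified, had 16, and Kcnf1 and Kcna7, classed as unmodified, had 3 and 4. Within the stretch itself, the 3 CpGs of Kcnf1 stood at 59.9% modified in replicate 1, with none covered in replicate 2, and those of Kcna7 at 33.7% and 40% (4 CpGs and 1). The letters GGGCGG, on either strand, were found in 12 of the 18 unmodified, 14 of the 22 intermediate and 3 of the 12 modified stretches, and in 35.7% of all RefSeq promoters. This motif contains a CpG, so its presence is not separate from CpG density. The letters TATAAA, on either strand, were found in the stretches of 2 of the 12 promoters classed as modified (Kcnj13 and Kcnj9). None of the 18 unmodified or 22 intermediate ones held them, against 13.6% of all RefSeq promoters. Kcnj15, whose promoter had no class, held them too. All these classes are those of the promoter 1 kb either side of the TSS, not of the stretch. The Kcnj9 stretch itself stood at 23.8% (5 CpGs) and 40% (1 CpG). That of Kcnj10, classed as intermediate, stood at 0% in both replicates.

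All 18 modified promoters were CpG-sparse, and 18 of the 25 unmodified ones were CpG-dense, where dense means a GC content of at least 50% and an observed-to-expected CpG ratio of at least 0.6 within 500 bp of the TSS. Over all coding genes 2741 of 2776 modified promoters were CpG-sparse and 6941 of 8352 unmodified ones CpG-dense, so nearly all modified promoters were sparse there too, and the dense share of unmodified ones was higher than in the channel genes. Over all 90 genes 42.2% of promoters were CpG-dense, against 47.3% of all coding genes. Of the promoters without 5 covered sites in each replicate, 4820 of 5834 were CpG-sparse over all coding genes and 9 of 14 in the channel genes. Across the 76 promoters the modified level ran against the CpG ratio, with a Spearman rho of -0.70 in replicate 1 and -0.63 in replicate 2. The plot of promoter levels shows that the modified corner is held by CpG-sparse promoters.

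**Figure D1:**
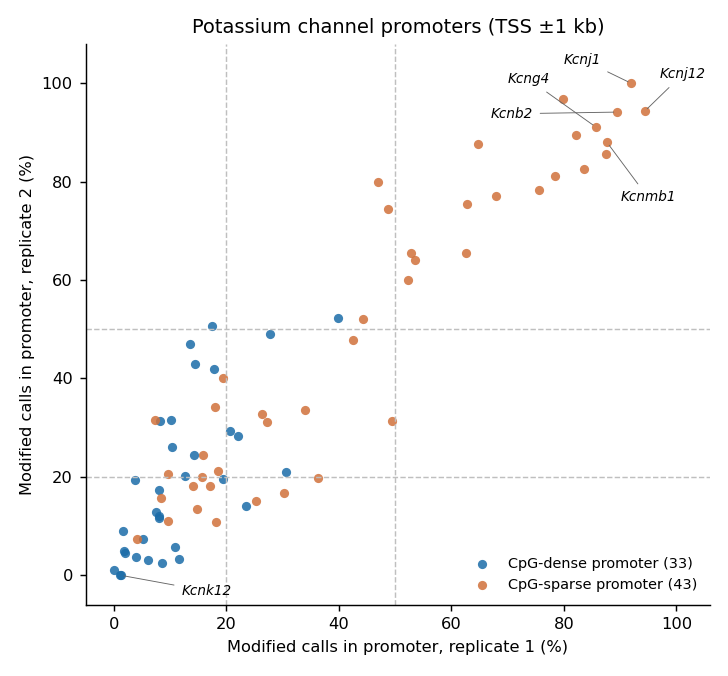
Modified calls (percent of calls other than CC, mean over CpG sites) in the promoters of 76 potassium channel genes, replicate 1 on the x axis and replicate 2 on the y axis, with 1 point per gene and colour by CpG density; dashed lines mark 20% and 50%. The upper right corner, at least 50% in both replicates, holds 18 promoters, all CpG-sparse.

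The most modified promoter belonged to Kcnj12, an inward rectifier of heart and other muscle, at 94.4% in replicate 1 (21 sites) and 94.3% in replicate 2 (10 sites). Kcnj1, the renal secretory K+ channel, stood at 91.98% and 100%, the latter over 7 sites. Kcnb2, a delayed rectifier of neurons, stood at 89.5% and 94.2%. Kcnmb1, the smooth muscle accessory subunit of the large-conductance calcium-activated (BK) channel, stood at 87.7% and 88%, and Kcng4, a silent subunit, at 85.7% and 91.1%. In all 5 the largest share was MM, between 55.4% in Kcnmb1 in replicate 1 and 75.6% in Kcnj12 in replicate 2. HC/CH made up 7.90% and 8.57% of calls in the Kcnj1 promoter and 7.82% and 7.33% in that of Kcng4, but in Kcnj12 it stood at 5.72% in replicate 1 and 1.00% in replicate 2.

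The 18 modified promoters ran from 52.2% to 94.4% in replicate 1 and from 60% to 100% in replicate 2. They include further inward rectifiers, with Kcnj16 at 87.5% and 85.6%, Kcnj13 at 83.5% and 82.7%, Kcnj14 at 68.0% and 77.1% and Kcnj9 at 62.7% and 75.5%. Accessory subunits make up another share, with Kcnmb3 at 82.2% and 89.5%, Kcne2 at 79.8% and 96.9%, Kcnip4 at 78.5% and 81.3%, Kcne1 at 52.8% and 65.5% and Kcnip1 at 52.2% and 60%. The remaining members of the class are Kcnu1 (75.7% and 78.3%), Kcnk18 (64.8% and 87.6%), Kcnrg (62.6% and 65.5%) and Kcnk7 (53.6% and 64.1%). Pore genes and accessory subunits were thus both present among the modified promoters.

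At the other end, the fast voltage-gated channel gene Kcnc4 had 1.05% and 0% of modified calls in replicates 1 and 2. Kcnk12, of the leak channel family, stood at 1.24% and 0%, Kcnma1, the BK pore, at 4% and 3.64%, and the silent subunit Kcng3 at 2.06% and 4.48%. The Kcnma1 value in replicate 1 rests on only 5 of the 183 CpGs of that promoter. The 14 promoters without 5 sites in a replicate all failed in replicate 2, and include Kcnd2, Kcnn2, Kcnq5 and Kcns3.

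The channel families held the promoter classes in different proportions, and each family is small. Of the 14 inward rectifier genes (Kcnj) with coverage, 6 were modified, 7 intermediate and 1, Kcnj4, unmodified. None of 7 Kcna, 4 Kcnc, 7 Kcnh, 3 Kcnab or 2 Kcnn promoters was modified. Both Kcne promoters with coverage, 2 of 4 Kcnip and 2 of 5 BK promoters were modified, as was that of Kcnrg, an accessory regulator. Among 12 leak channel promoters (Kcnk), 2 were modified and 6 unmodified. These counts were not tested between families. For comparison, of 30 promoters of sodium, calcium and cyclic nucleotide-gated channel genes with coverage, 7 (23.3%) were modified and 12 (40%) unmodified. Over all coding genes with coverage 18.6% were modified, 25.3% intermediate and 56.1% unmodified.

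HC/CH was also present in the channel promoters covered in both replicates, with a median of 3.37% in replicate 1 and 3.42% in replicate 2. Over all coding genes with that coverage the median was 1.58% and 1.67%. Within the potassium channel genes it was lowest in unmodified promoters, with medians of 1.54% and 1.02%, and higher in intermediate ones, at 4.15% and 4%. In modified promoters the medians were 6.84% and 5.36%. HM/MH followed the same order, with 0.333% and 0% in unmodified, 1.11% and 2.08% in intermediate and 5.65% and 2.96% in modified promoters as called. After correction the medians were 0.196% and 0%, 0.576% and 2.06%, and 3.51% and 2.77%. Since the classes were cut from the sum of all modified states, this order is a description.

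**Figure D2:**
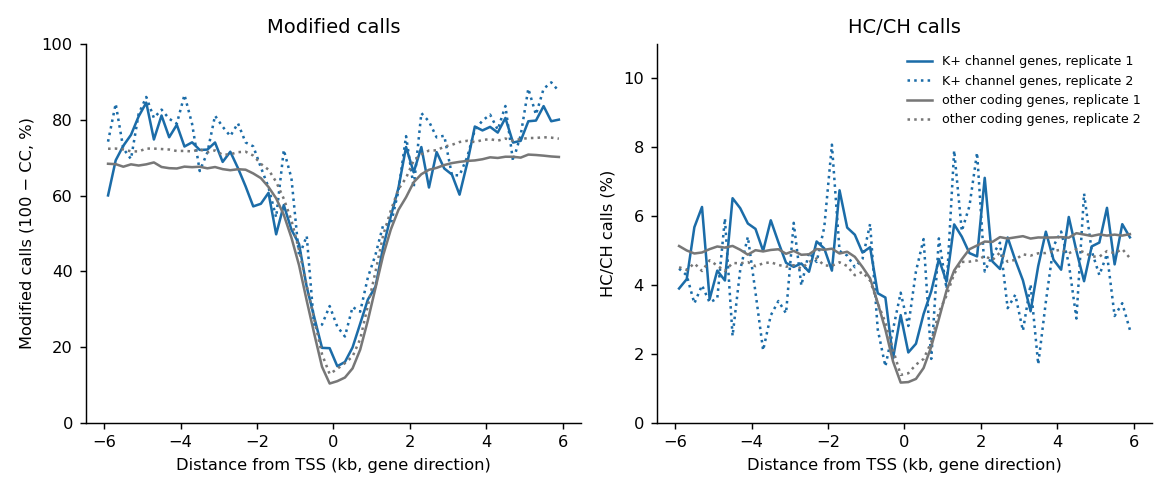
Modified calls (left, percent of calls other than CC) and HC/CH calls (right, percent) in 200-bp bins up to 6 kb either side of the TSS, in the direction of the gene, for the 90 potassium channel genes (blue) and all other coding genes (grey), replicate 1 solid and replicate 2 dotted. Both groups dip at the TSS, where CC made up 85.1% of calls in the channel genes against 89.0% in other genes in replicate 1 in the bin centred 100 bp downstream.

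Around the TSS, both the channel genes and other coding genes lost modified CpGs, as the plot of levels by distance shows. In the bin centred 100 bp downstream of the TSS, CC made up 85.1% of calls in the channel genes in replicate 1 (345 sites) and 74.6% in replicate 2 (86 sites), against 89.0% and 85.8% in other coding genes. HC/CH in that bin stood at 2.04% and 2.81% in the channel genes and at 1.18% and 1.44% in other genes. In replicate 2 a bin of the channel genes holds few sites, so its course is uneven.

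The gene body was taken as exons, first intron and other introns outside the promoter, and 59 of the 90 genes had at least 50 covered CpGs there in each replicate. The 31 genes under that minimum were mostly short, with a median length of 7.82 kb, so the gene body values describe the longer genes. The median HC/CH level in the 59 gene bodies was 4.37% in replicate 1 and 3.43% in replicate 2, below the 5.28% and 4.37% of all 9721 coding genes with the same coverage. MM was a little higher than in all coding genes, at 59.3% and 64.4% against 57.3% and 62.2%. Hemimethylated MC/CM was level with all coding genes, at 12.7% and 14.3% against 12.6% and 14.3%, and HH stood at 0.456% and 0.130% against 0.491% and 0.153%. MM duplexes were called as HH in 0.709% and 0.0117% of calls, and after correction the median HH was 0% and 0.113% against 0.0113% and 0.131%. The median HM/MH was 4.07% and 2.39% as called, against 4.44% and 2.79%, and 1.36% and 2.02% after the spike-in correction, against 1.75% and 2.41%. The correction thus turned the order of the replicates around and did not bring them level. As called, 29 of the 59 genes had more HC/CH than HM/MH in both replicates, against 66.7% of all coding genes, and after correction 55 of 59 did, against 92.9%. The 4 exceptions after correction were Kcnc4, Kcnip4, Kcnj5 and Kcnk10.

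Each gene body was compared with those of all other coding genes in the same replicate by a two-sided Fisher's exact test on HC/CH calls, with Benjamini-Hochberg adjustment over 9721 genes, and a gene was called only where the adjusted p was under 0.05 in both replicates with the same direction. In that test 9 of the 59 channel genes (15.3%) were higher, against a background of 19.7%, and 21 (35.6%) were lower, against 14.3%. The calls of 1 library share fragments and neighbouring sites, so these p-values cover counting error only. With the variance taken over CpG sites instead, 6 were higher (10.2%, against 13.0%) and the same 21 were lower (35.6%, against 14.9%). Among other cation channel genes 7 of 38 were higher and 14 lower, and among 9 known partners of potassium channels under other symbols, 6 of which could be tested, none was higher and 4 were lower.

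Ranked by the lower of its replicates, Kcnk5, an acid-sensitive leak channel of kidney and other epithelia, stood first of the 9 higher genes in HC/CH level, at 10.2% in replicate 1 (390 sites) and 9.04% in replicate 2 (149 sites), where Kcnj4 stood above it. Its share of all calls was 9.78%, with a 95% Clopper-Pearson interval of 8.86% to 10.7%, in replicate 1 and 8.59% (6.86% to 10.6%) in replicate 2. That is 5.14 and 4.45 percentage points above other genes (adjusted p = 1.53e-39 and 4.19e-08, Fisher's exact test with Benjamini-Hochberg adjustment). Its level exceeded those of 99.9% and 98.5% of all coding genes tested. Its gene span is chr14:20140057-20181809 on the minus strand (mm10), and its promoter is the unmodified one whose letters are given above.

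Kcnh3, a brain channel of the ether-a-go-go family (chr15:99224861-99242817), stood at 8.95% and 8.85% HC/CH, 4.63 and 4.61 points above other genes (adjusted p = 5.09e-15 and 0.000172, Fisher's exact test). Its span overlaps Mcrs1, so part of its CpGs belongs to both genes. Kcnj4, an inward rectifier of the brain, stood at 7.23% and 10.6%, and the difference from other genes was 1.99 and 6.26 points. Kcng4 stood at 6.72% and 8.49%, with its promoter in the modified class, and Kcnh4 at 6.61% and 7.58%. The other higher genes include Kcng1 (6.33% and 7.34%), Kcnn3 (6.27% and 5.09%) and Kcnh2 (5.61% and 6.08%), the last being the channel of the rapid cardiac repolarising current. The calls of Kcng1 and Kcnh2 were lost with only shared CpG sites, with all coding transcripts and with the variance taken over sites, that of Kcnh4 with shared sites and that of Kcnn3 with the variance over sites. The call of Kcnh2 was also lost with replicate 1 alone. Its difference there was the same 0.91 points, but the adjustment ran over 14283 genes in place of 9721. With shared sites, the mean difference of the replicates went from 2.01 to 1.10 points in Kcng1, from 1.51 to 1.87 in Kcnh2 and from 2.65 to 2.99 in Kcnh4. Kcng4 had too few shared sites to be tested. With at least 100 sites in each replicate Kcnh3, Kcnj4, Kcng4, Kcnh4 and Kcng1 could not be tested.

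The 21 lower genes spanned 2.12% to 4.05% HC/CH in replicate 1 and 1.15% to 3.05% in replicate 2, with differences from other genes from -2.62 to -0.72 points in replicate 1 and from -2.87 to -1.09 in replicate 2. Ranked by the higher of the replicates, the lowest levels were those of Kcnh7, a neuronal channel of the ether-a-go-go family (chr2:62693414-63184287), at 2.12% and 2.02%, and Kcnh5 of the same family, at 2.13% and 1.87%. In replicate 2 Kcnip4 was the lowest of the 21. Kcnj3, a G protein-gated inward rectifier of heart and brain, stood at 2.34% and 2.14%. Kcnn2, a small-conductance calcium-activated channel, stood at 2.46% and 2.11%, and Kcnd2, which carries transient A-type current in dendrites, at 2.55% and 1.84%. Kcnma1, with the most covered CpGs of all members (3938 and 1292), stood at 3.32% and 2.43%. The voltage-gated pore genes among the 21 were Kcnb2, Kcnc2, Kcnd2, Kcnh1, Kcnh5, Kcnh7, Kcnh8, Kcnq3 and Kcnq5. The calcium- or sodium-activated ones were Kcnma1, Kcnn2 and Kcnt2, the inward rectifiers Kcnj3 and Kcnj15, and the leak channels Kcnk2, Kcnk10 and Kcnk13. The accessory subunits were Kcnab1, Kcnip1, Kcnip4 and Kcnmb2. The call of Kcnj15 (a mean difference of -1.61 points) was lost with only shared CpG sites (-1.62) and with all coding transcripts (-1.54). With at least 100 sites in each replicate Kcnj15 could not be tested. The call of Kcnk13 (-1.10) was lost with shared sites (-1.10). Kcnip4, at 1135 kb the longest of the 90 genes, stood at 2.73% and 1.15%. The median MM over these 21 genes was 61.8% and 66.9%, against 45.7% and 44.2% over the 9 higher genes.

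**Figure D3:**
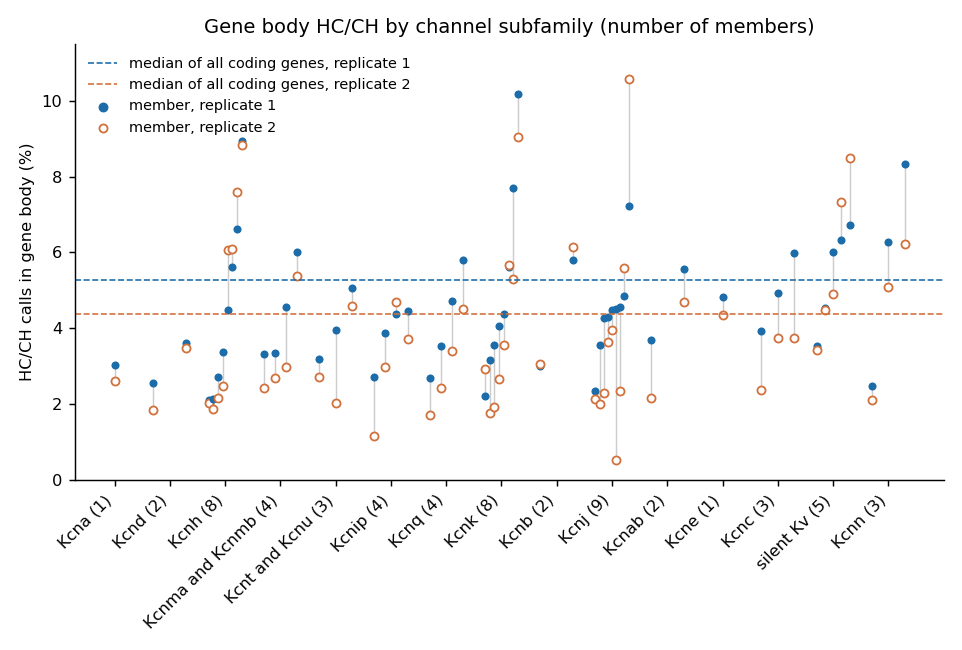
HC/CH calls (percent, mean over CpG sites) in the gene body of 59 potassium channel genes by subfamily, in order of the median in replicate 1, with filled points for replicate 1, open points for replicate 2 and a line joining the pair of values of a gene. Dashed lines are the medians of all coding genes, 5.28% and 4.37%. In replicate 1 the lowest gene belongs to Kcnh and the highest to Kcnk, and in replicate 2 both belong to Kcnj.

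Subfamilies did not move as blocks, as the plot by subfamily shows. The 8 Kcnh genes ran from 2.12% to 8.95% in replicate 1, with 3 higher and 4 lower, and the 8 Kcnk genes from 2.21% to 10.2%, with 1 higher and 3 lower. Of 5 silent subunit genes 2 were higher and none was lower, while 2 of 4 Kcnq, 2 of 4 Kcnip and 2 of 4 BK genes were lower and none higher. Over all coding genes tested 19.7% were higher and 14.3% lower. The families are small and were not tested against each other. In the remaining families the member with the highest HC/CH was Kcnn1 in Kcnn (8.33% and 6.21%, of which only replicate 1 passed the test), Kcnab2 in Kcnab (5.57% and 4.70%), Kcnmb4 among the BK genes (6.004% and 5.38%) and Kcnu1, the sperm K+ channel, among Kcnt and Kcnu (5.06% and 4.59%). Ranked by the lower of the replicates, Kcnc1 (4.94% and 3.75%), Kcnip2 (4.37% and 4.69%) and Kcnd3 (3.62% and 3.49%) led their families without a call. In replicate 1 another gene stood higher in Kcnc, at 5.98%, and in Kcnip, at 4.44%. Kcne3 (4.82% and 4.36%) and Kcna6 (3.04% and 2.60%) were the only members of their families with enough sites. Across the 59 genes the replicates had a Spearman rho of 0.841 for HC/CH and 0.370 for HM/MH as called, 0.701 after correction. The largest disagreement was Kcnj5, a cardiac G protein-gated channel, with 221 sites at 4.50% in replicate 1 but 69 sites at 0.531% in replicate 2.

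Gene length went along with these levels. The 59 genes had a median length of 59.9 kb, against 46.7 kb for all coding genes tested, and HC/CH was lower in longer genes, with a Spearman rho of -0.71 in replicate 1 and -0.63 in replicate 2, against -0.36 and -0.34 over all coding genes. The 9 higher genes had a median length of 21.6 kb and the 21 lower ones of 319.4 kb. Among genes of 100 kb or longer the 22 channel genes had median HC/CH levels of 3.26% and 2.27%, below the 4.29% and 3.45% of all 2318 coding genes of that length, and 19 of the 22 (86.4%) were lower in the test, against 42.1%. Between 20 and 100 kb the 32 channel genes stood at 4.65% and 4.22%, against 5.46% and 4.53%, with 5 higher (15.6%, against 20.6%) and 2 lower (6.25%, against 6.52%). Under 20 kb only 5 channel genes could be tested, at 6.61% and 7.58% against 6.03% and 5.41%, with 3 higher (60%, against 22.8%) and none lower (against 1.34%). A longer gene as a rule holds more calls, so the test can call a smaller difference in it. How far this bears on the shares called was not tested. The ranges of length were added after the data were seen, and the part of length in the difference was not tested further. Kcnn3 was the single long gene among the 9 higher ones, at 155.0 kb.

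**Figure D4:**
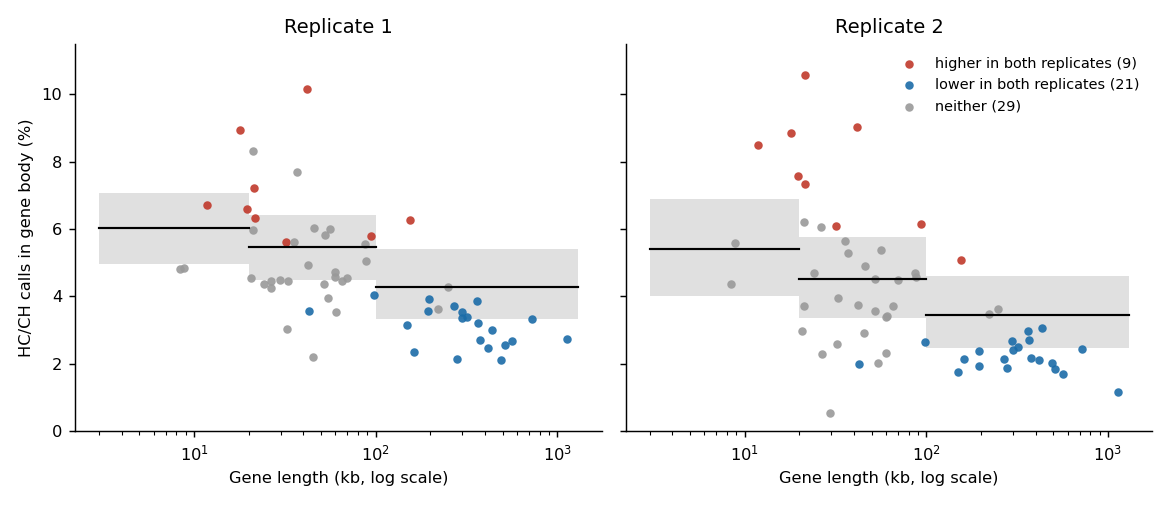
HC/CH calls (percent) in the gene body of 59 potassium channel genes against gene length (kb, log scale), replicate 1 left and replicate 2 right, coloured by the call in both replicates (9 higher, 21 lower, 29 neither). Black lines and grey bands are the median and interquartile range of all coding genes in 3 ranges of length; most channel genes of 100 kb or longer lie under that median.

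For HM/MH the same test called 1 channel gene higher (1.69%), against a background of 3.69%, and 7 lower (11.9%), against 3.85%. The higher one was Kcnmb4, the neuronal BK accessory subunit (chr10:116417861-116473878), at 5.49% and 4.59% as called and 2.696% and 4.23% after correction, with calls 0.98 and 1.84 points above other genes (adjusted p = 0.00149 and 0.00106, Fisher's exact test). The lower ones were Kcnd2, Kcnh7, Kcnip4, Kcnmb2, Kcnn2, Kcnq3 and Kcnq5, all of them also lower in HC/CH and all of 297.7 kb or longer. Among genes of 100 kb or longer they made up 31.8% of the 22 channel genes, against 13.9% of all coding genes of that length. Kcnh7 stood at 3.62% and 1.33%, or 0.61% and 0.96% after correction. Only 2 of the 7 calls, those of Kcnip4 and Kcnmb2, were kept with the CpG sites covered in both replicates, which is 3.70% of 54 channel genes against a background of 2.37%. The mean difference of the replicates in the other 5 lay between -1.03 and -0.65 points with all sites and between -0.94 and -0.63 with shared sites. By level, Kcnh3 (5.27% and 4.92%), Kcnc4 (4.65% and 5.32%) and Kcnj4 (4.59% and 4.89%) had the most HM/MH without a call, with corrected levels of 3.11% and 4.55%, 2.30% and 5.14%, and 2.03% and 4.39%. Kcnj9, a G protein-gated inward rectifier, had 1.18% and 2.06%, Kcnj10, the inward rectifier of glia, 2.98% and 1.90%, and Kcnip2, a modulator of A-type channels in heart, 3.11% and 2.48%. After correction these were 0.447% and 1.79% in Kcnj9, 0.824% and 1.55% in Kcnj10 and 1.19% and 2.18% in Kcnip2. In Kcnj9 the gene body also had the lowest MM of the 59 genes, at 14.5% and 19.97%.

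**Figure D5:**
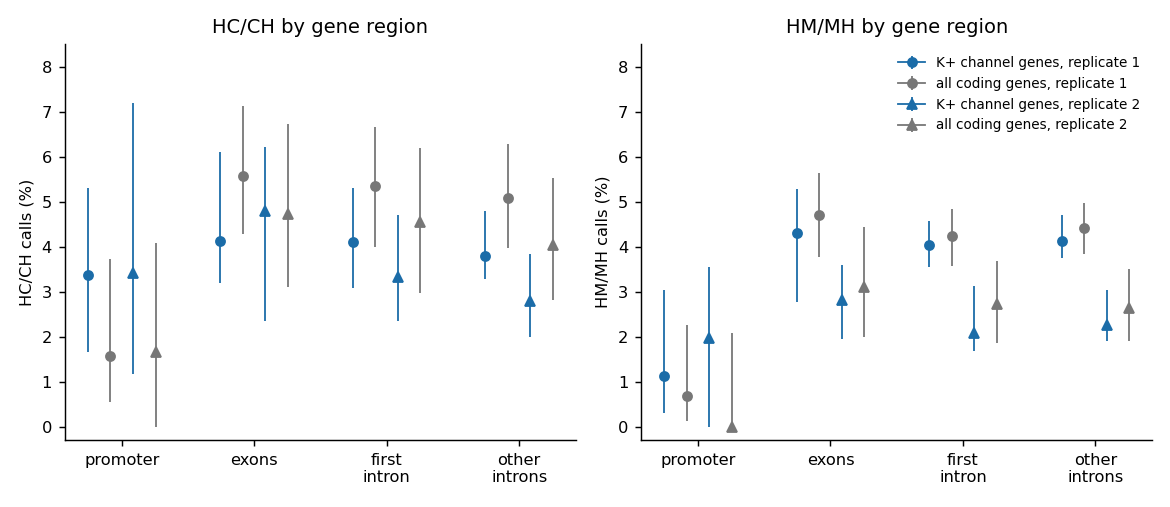
Median HC/CH (left) and HM/MH (right) calls (percent) in promoters, exons, first introns and other introns, with bars for the interquartile range over genes, for the potassium channel genes (blue) and all coding genes (grey), replicate 1 as circles and replicate 2 as triangles. HC/CH is higher in the channel promoters covered in both replicates (3.37% and 3.42% against 1.58% and 1.67%) and lower in the introns of the channel genes.

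By region, the median HC/CH of the channel genes was 4.13% and 4.80% in exons (36 genes), 4.09% and 3.33% in first introns (42 genes) and 3.799% and 2.80% in other introns (42 genes). All coding genes stood at 5.58% and 4.72% in exons, 5.35% and 4.55% in first introns and 5.08% and 4.03% in other introns. Replicate 2 thus placed the exons of channel genes level with those of all genes, and replicate 1 placed them lower. In the 2 kb upstream outside the promoter, the 37 genes with 5 sites in each replicate had 5.82% and 4.42%, against 4.39% and 3.37%. The median MM of channel genes was 47.5% and 53.2% in exons, 60.7% and 64.4% in first introns and 61.5% and 66.4% in other introns, against 57.6% and 62.7%, 53.2% and 57.97%, and 58.8% and 63.8% in all coding genes. The channel genes thus had the lower median in exons and the higher one in both kinds of intron.

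Within genes, HC/CH in exons was compared with that in introns by Fisher's exact test in 31 channel genes. Kcnq5, which carries the neuronal M-current (chr1:21398403-21961942), was higher in exons, at 5.99% and 5.29% against 2.26% and 1.46% in the first intron and 3.09% and 1.76% in other introns. The difference was 3.08 and 4.02 points (adjusted p = 7.4e-05 and 0.0383, Fisher's exact test), with 84 and 28 exonic CpGs, and it did not pass with the variance taken over sites. That is 3.23% of the 31 genes, against a background of 0.828%, and none was lower, against 0.0871%. Kcnd2 had a like difference of 1.53 and 5.76 points, of which only replicate 2 passed (adjusted p = 0.134 and 0.00721, Fisher's exact test). Kcng2 ran the other way, with -2.95 and -2.82 points, of which only replicate 1 passed (adjusted p = 0.000658 and 0.655, Fisher's exact test).

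Between the first intron and other introns, Fisher's exact test called none of 25 channel genes higher and none lower, against backgrounds of 2.35% and 0.822%. A gene that was not called is not shown to have equal levels. At an unadjusted p under 0.05 there were 10 in replicate 1 and 4 in replicate 2. No share over all genes was taken at that threshold, so these counts cannot be read as many or few. The largest differences in replicate 1 were -2.47 points in Kcng2 and -2.02 points in Kcnj16, with -2.27 and 0.43 points in replicate 2. The strand of hmC within HC/CH, sense against antisense of the gene, was compared by an exact binomial test. It called none of 59 channel genes in either direction, against a background of 0.0% higher and 0.0% lower. At an unadjusted p under 0.05 there were 5 genes in replicate 1 and 2 in replicate 2, again without a share over all genes to set them against.

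Gene body HC/CH overlapped between the promoter classes of the channel genes. The 16 genes with an unmodified promoter had medians of 5.80% and 4.80%, the 25 with an intermediate one 4.29% and 3.49%, and the 9 with a modified one 4.55% and 2.98%. Each class spanned a wide range, from 2.73% to 6.72% in replicate 1 for the modified class, so a modified promoter was found with high gene body HC/CH (Kcng4) as well as with low (Kcnip4, 2.73% and 1.15%). The Spearman rho between promoter level and gene body HC/CH over 50 genes was -0.22 in replicate 1 and -0.12 in replicate 2. Of the 90 genes 9 overlap another coding gene, among them Kcnip1 and Kcnmb1, whose spans lie in the same stretch of chromosome 11. The transcripts used for these genes lie apart, so no CpG is in the promoter or gene body of both. Without the 6 overlapping genes that met the minimum, 8 of 53 genes (15.1%) were higher and 17 (32.1%) lower in HC/CH. Over all coding genes tested, from which overlapping genes were not left out, these shares were 19.7% and 14.3%.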

How the data were processed

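SCoTCH-seq data of 2 passages of E14 mESCs were used. The authors trimmed read pairs with Cutadapt 4.6, used BSBolt to align them to GRCm38 and Picard 3.1.1 to remove duplicates, and called the state of each CpG site in each read pair. They removed blacklisted regions and sites with several calling errors. They deposited a count of calls for each CpG state and site, and the percent, which is the share of that count in all calls of the site. Neither was corrected with the spike-ins, and only sites with at least 5 calls are included.

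The counts were summed per gene and region in Python 3.11.15 (pandas 2.3.3, SciPy 1.17.1 and NumPy 2.4.6; plots in Matplotlib 3.10.9). All positions fell on the C of a CpG of GRCm38.p6. Regions came from 1 protein-coding transcript per gene of GENCODE vM21, by APPRIS rank and then spliced length. Levels are means over CpG sites of the share of calls, each replicate apart, with at least 5 sites in promoters and upstream regions, 50 in gene bodies and 20 in exons, first introns and other introns in each replicate. Corrected levels solve 9 linear equations with the call rates of the duplexes of the same replicate, with negative solutions set to 0. The true state of a duplex site was taken as its most frequent call in that replicate, not from the synthetic sequence. Only duplex sites with at least 1000 calls were used. Fisher's exact tests and exact binomial tests on calls were two-sided, with Benjamini-Hochberg adjustment over all genes. Simulated calls were drawn independently, with 1 rate for all unchanged genes. Genes were changed 1.5-fold in the gene body or 2-fold in the first intron. There the HC/CH tests recovered only a minority of the changed genes, fewer of the lower than of the higher ones. They made no false call, but real calls share fragments and real genes differ, so this gives no rate of false calls here. Intervals are Clopper-Pearson at 95% and cover counting error only. Samples were not tested against each other, as both belong to 1 group, and the labels do not say that the passages were independent cultures.

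Genes were named as the 5 highest and 5 lowest in gene body HC/CH, the 3 highest and 3 lowest in HM/MH, the 5 most and 5 least modified promoters, any called regional difference and the highest HC/CH gene of each subfamily. Ranks used the less extreme replicate, and other genes were named after their values were seen. Values of a few genes that this rule or a list names are not reported here. The members, lists and tests were chosen with earlier results of these data known. Alternatives changed the depth, site minimum, transcript choice, promoter width, weighting, correction and test, or used 1 replicate.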

Additional observations from a re-analysis of the deposited data

How the results depend on the processing

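No paired analysis was possible because the 2 replicates belong to 1 group. Replicate 2 limits precision, with a median of 6 calls per site. With at least 10 calls per site, 1 channel gene could be tested in the gene body, with HC/CH and HM/MH counts of 0 higher and 0 lower, gene body MM at 58.04%, first intron HC/CH at 1.83% (4 genes) and other introns at 2.21% (6 genes). Promoters of 500 bp either side gave a modified level of 11.4% (42 genes), with 7 modified and 9 intermediate. With 10 sites per promoter, 5 were modified and 14 intermediate. The correction moved HM/MH to 1.69%. With only CpG sites covered in both replicates, 5 genes were higher in HC/CH (9.26%, against 16.3% of all coding genes tested) and 2 lower in HM/MH (3.70%, against 2.37%), and with 100 sites 5 were higher in HC/CH (12.2%, against 22.7%). The exon call of Kcnq5 was lost with the variance over sites (0 higher). With 40 sites per region 5 channel genes were left and 0 were higher, and Kcnq5 could not be tested.

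With 1 replicate at a time, first intron HC/CH ranged from 3.33% to 4.62% and other introns from 2.80% to 4.29%. Counts ranged from 29 to 47 for unmodified promoters, from 18 to 24 for intermediate ones, from 9 to 18 for HC/CH higher, from 10 to 14 for HM/MH lower and from 0 to 4 for exons lower, with 4 and 4 for HM/MH higher and 3 and 3 for exons higher. For first introns they ranged from 0 to 3 higher and from 0 to 3 lower. The 3 and 3 were both 9.09% of 33 channel genes in replicate 1 alone, against 10.6% higher and 7.03% lower over all coding genes. In replicate 1 alone the share of channel genes higher in HC/CH was 23.7%, against 36.2% of all coding genes tested, and that lower in HM/MH 18.4%, against 10.8%. In replicate 2 alone these were 15.3%, against 21.9%, and 16.9%, against 6.96%. Replicate 1 alone, in which more genes met the site minimum, gave the high end of each range except that of intermediate promoters. Its promoter counts were out of 90, and those of replicate 2 alone out of 76. Unmodified promoters made up 52.2%, against 57.4% of all coding genes, and 38.2%, against 58.4%. Intermediate ones were 18 of 90, against 13.3%, and 31.6%, against 18.8%. The share higher in HM/MH was 5.26%, against 10.6%, and 6.78%, against 8.69%. In replicate 2 alone the share higher in exons was 9.68%, against 2.31%.

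The cause of these changes was not tested, beyond the fewer genes that the stricter minimums leave. No called difference of a single gene changed sign, but in replicate 1 alone the exon counts went from 1 higher and 0 lower to 3 higher (4.23%, against 6.24%) and 4 lower (5.63%, against 2.37%), so that the share higher in exons, above the background with both replicates, lay under it. The modified share of channel promoters in replicate 1 alone also lay under that of all coding genes. Unmodified promoters outnumbered intermediate ones with the narrower promoter, with 10 sites and with either replicate alone. Of the values of single genes under the alternatives, 208 stayed on the same side of the threshold and 18 no longer passed. Genes that could not be tested under an alternative are in neither count.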

Other observations

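The promoters of the partner genes of potassium channels were not described above. Of 7 with coverage 3 were modified, 2 intermediate and 2 unmodified, against 18.6%, 25.3% and 56.1% of all coding genes with coverage. Abcc9, the regulatory subunit of muscle KATP channels, had a promoter at 92.8% and 89.4% modified calls, and Lrrc55, an accessory subunit of BK channels, one at 94.9% and 93.6%. Lrrc52 stood at 82.3% and 95.1%, Abcc8 at 35.7% and 21.1%, Dpp6 at 29.8% and 44.8%, Amigo1 at 12.7% and 10.95% and Lrrc26 at 9.08% and 6.81%. The KATP pore genes Kcnj8 and Kcnj11 stood at 15.6% and 20%, and at 49.5% and 31.4%. Among the partners tested above for gene body HC/CH, Dpp6, an accessory subunit of A-type channels, had 3.76% and 2.74%, and Dpp10, of the same family, 2.004% and 1.34%.

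In the control DNA of the same libraries HC/CH was called in 0.153% and 0.0863% of calls on methylated lambda DNA and in 0.0344% and 0.0859% on unmethylated pUC19. MC/CM, from which HC/CH was called far more often than from CC or MM in replicate 1, made up less of both controls than of gene bodies, so the controls understate the background there. The lowest HC/CH level of a channel gene body was 2.12% in replicate 1 and 0.531%, in Kcnj5, in replicate 2 as called, and 1.48% and 0.396% after correction.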
